A study of Homo sapiens with 8 samples.

Results

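Selenoproteins carry selenocysteine, an amino acid that the ribosome inserts at a UGA codon that would otherwise end translation. The 10 genes described here are GPX1, GPX4, SELENOP, SELENOH, SELENOK, SELENOS, SELENOT, SELENOW, SELENOF and SELENOM, and they were chosen by name from the 11244 genes of the deposited translation efficiency table as proteins with selenocysteine at an in-frame UGA. TXNRD1 was left out of the set by the rule and is given with the other selenoprotein genes. In METTL5-KO libraries, GPX1 and GPX4 had higher input RNA, by 1.47-fold and 1.33-fold, and more ribosome-protected fragments, by 1.27-fold and 1.39-fold. SELENOW had 2.13-fold more protected fragments, a change that was 0.36 on the log2 scale, and not called, without the first METTL5-WT lysate. The GPX1 and GPX4 calls also depended on the fit and on the libraries used. Of the 10, 2 were called in input and 3 in protected fragments, beside 22.4% and 26.6% of all genes in either direction. None of the 10 passed the test for a change in translation efficiency, which 4.72% of all genes passed.

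Selenocysteine is decoded by a dedicated tRNA, which the elongation factor EEFSEC brings to the ribosome. A hairpin in the 3′ untranslated region of the message, the SECIS element, binds SECISBP2 and marks the UGA for recoding. When insertion fails, translation can stop at the UGA, and a UGA that lies well upstream of the last exon junction can then expose the message to nonsense-mediated decay.

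The study profiled ribosomes in cells labelled HepG2, an established line from a human liver cancer, to ask how translation differs without METTL5, the enzyme that methylates 18S ribosomal RNA. METTL5-WT and METTL5-KO cells were both exposed to cycloheximide at 100 µg/mL for 7 min, and each lysate gave an input RNA library and a library of ribosome-protected fragments (RPF) from micrococcal nuclease digestion. There were 8 libraries in 4 groups (METTL5-WT input, METTL5-KO input, METTL5-WT RPF and METTL5-KO RPF) with 2 replicates per group. In METTL5-KO cells, part of METTL5 (exons 2 and 3 per the labels) had been excised with CRISPR-Cas9 and paired guides, and lines were grown from single isolated clones. Which clone gave which replicate is not stated, so clone and genotype cannot be told apart, and p-values measure only the spread between these samples.

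Input libraries held 10710226 to 15307257 counts. The METTL5-WT RPF libraries held 3970779 and 4592443 reads and the METTL5-KO RPF libraries held 8626705 and 9255921, so RPF values of METTL5-WT rest on fewer reads throughout. METTL5 itself had 490 and 542 input counts in METTL5-WT against 208 and 151 in METTL5-KO, and 158 and 226 against 41 and 21 RPF reads, in the direction of the labels. The defining markers of the labelled cell type were at or near 0. The 6 hepatocyte and HepG2 markers ALB, AFP, APOA1, APOB, TTR and SERPINA1 summed to 4 and 2 input counts for METTL5-WT, to 5 and 12 for METTL5-KO, and no marker exceeded 9 counts in any library. Of the markers of other cells, PTPRC, CD68, PECAM1 and VWF had at most 6 counts, whereas COL1A1 had 429 to 937 and COL3A1 had 2536 to 3317. COL1A1 input was higher in METTL5-KO by 0.44 on the log2 scale and COL3A1 input fell by 0.51 (edgeR quasi-likelihood test, adjusted p = 0.0225 and 0.00192). HepG2 is therefore given only as the name the libraries carry, and the part of these markers in the selenoprotein values was not tested. In bulk libraries, fewer cells of a type and less RNA per cell cannot be told apart.

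The position of the UGA differed widely among the 10 reading frames. The windows below run from 15 bases before the UGA to 12 bases after it or to the end of the stop codon, 5′ to 3′ on the coding strand, with the selenocysteine codon in capitals; they are shown because the sites differ in how much of the protein lies behind the UGA. They were read from GENCODE release 44 transcripts on hg38.
SELENOW: gtttattgtggcgctTGAggctacaagtcc
GPX1: aatgtggcgtccctcTGAggcaccacggtc
SELENOT: cagatttgtgtttccTGAggttataggcgg
GPX4: aacgtggcctcccagTGAggcaagaccgaa
SELENOK: ccaatggctggtggaTGAggaaggtaa
SELENOS: ccgtcatctggcggaTGAggctaa
SELENOP: cttcttcaagccagcTGAtacctgtgcata

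In SELENOW the UGA was codon 13 of 87 (chr19:47780732-47780734, plus strand, exon 2 of 6), so 74 codons followed it. In GPX1 it was codon 49 of 203 (chr3:49358132-49358134, minus strand, exon 1 of 2). In SELENOT it was codon 49 of 195 (chr3:150622392-150622394, plus strand, exon 2 of 6). In GPX4 it was codon 73 of 197 (chr19:1105403-1105405, plus strand, exon 3 of 7). These frames place the UGA in the first part of the protein.

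At the other end, SELENOK had its UGA at codon 92 of 94 (chr3:53885831-53885833, minus strand, exon 4 of 5) and SELENOS at codon 188 of 189 (chr15:101272777-101272779, minus strand, exon 6 of 6). In both, the stop codon proper is visible at the end of the printed window. SELENOH (codon 44 of 122), SELENOM (codon 48 of 145) and SELENOF (codon 96 of 165) had the UGA in the first 60% of the frame. SELENOP was the exception in number: it had 10 UGA codons, the first at codon 59 of 381 (chr5:42808177-42808179, minus strand, exon 2 of 5) and the other 9 from codon 300 to codon 378, all in the last exon. Together the 10 frames held 19 selenocysteine codons.

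**Figure D1:**
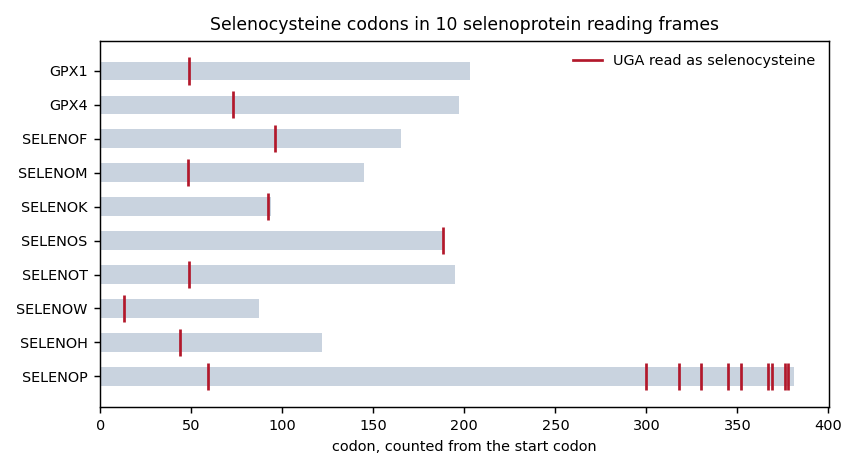
Reading frames of the 10 selenoprotein genes drawn to scale in codons from the start codon (bars), with each UGA read as selenocysteine as a red line. SELENOW, GPX1, SELENOT and the first UGA of SELENOP lie near the start, SELENOK and SELENOS at the end, and SELENOP has 10 lines.

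The base after the first UGA, which is known to affect how often UGA is read as a stop, was G in 6 of the 10 genes (GPX1, GPX4, SELENOK, SELENOS, SELENOT and SELENOW), C in SELENOH and SELENOM, A in SELENOF and T in SELENOP. Distance to the last exon junction varied as well. The UGA lay 470 bases upstream of it in SELENOT, 357 in SELENOP (its first UGA), 342 in GPX4, 267 in SELENOH, 243 in SELENOW, 135 in SELENOM, 105 in GPX1 and 78 in SELENOF. In SELENOK the distance was 5 bases, and in SELENOS the UGA lay beyond the junction, in the last exon. The files give 1 total per gene and library, so they cannot show whether ribosomes were read before or after the UGA of any gene.

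Transcript levels are compared between genes as TPM, the input counts per length of all annotated exons scaled to a common total per library. GPX1, the cytosolic glutathione peroxidase that reduces hydrogen peroxide, was the most abundant of the 10 in METTL5-WT, with 319.4 and 319.1 TPM. GPX4, which reduces lipid hydroperoxides in membranes, had 287 and 317 TPM, and SELENOF, an ER-resident partner of the glycoprotein-folding sensor UGGT1, had 268 and 288. GPX4 and SELENOF overlapped and so did not differ beyond the spread between replicates.

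SELENOK, a small ER membrane protein that works with the palmitoyltransferase ZDHHC6, followed at 82.4 ± 9.28 TPM (SD, n = 2). SELENOT, an ER membrane oxidoreductase, had 60.4 ± 0.946 TPM, and SELENOS, an ER membrane protein of the machinery that exports misfolded proteins, had 38.0 ± 1.41. SELENOW and SELENOH, small proteins with a thioredoxin-like fold, had 19.4 ± 2.18 and 18.2 ± 2.09 TPM and overlapped. SELENOM, a thioredoxin-like protein of the ER lumen, had 2.92 ± 0.538 TPM. SELENOP, the secreted protein that carries selenium from liver to other organs, was last with 0.980 and 0.933 TPM, or 21 and 19 counts.

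This order depended on the length used. SELENOW has 5248 bases of annotated exons but a 758-base transcript, and over transcript length its level was 105 and 123 TPM, above SELENOK (108 and 91.6), SELENOS (103 and 96.9) and SELENOT (61.2 and 62.4) in the mean. GPX4 then led with 580 and 637 TPM against 358 and 356 for GPX1. SELENOP remained lowest with 2.23 and 2.12.

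RPF values are given as deposited, reads divided by the library's size factor. Per kilobase of coding sequence in METTL5-WT, GPX4 had 2404 and 2157, SELENOF 2271 and 2110 and GPX1 1801 and 1688. SELENOK had 1425 and 1020 and SELENOS 1305 and 953, which overlapped. SELENOT had 101 and 130, far under SELENOK and SELENOS, and SELENOP had 2.07 and 1.75.

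**Figure D2:**
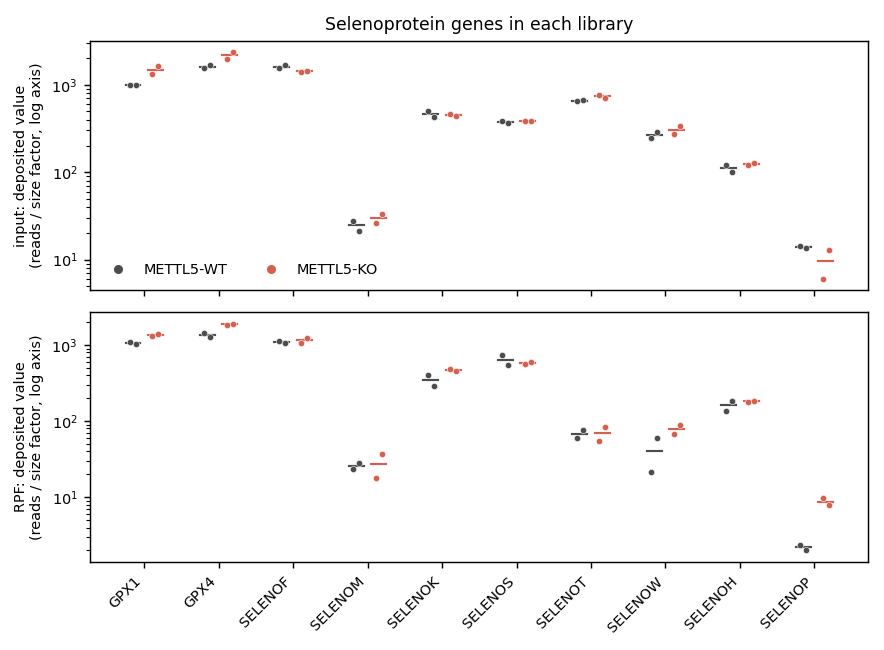
Deposited values (reads divided by the size factor, log axis) of the 10 genes in each library, input above and RPF below; points are libraries, grey METTL5-WT and red METTL5-KO, and the short line is the mean of 2. Both METTL5-KO points lie above both METTL5-WT points for GPX1 and GPX4 in input and RPF, and RPF of SELENOP rests on a single read per METTL5-WT library.

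Translation efficiency (TE) is the RPF value over the input value of the same lysate. In METTL5-WT, 3 of the 10 genes stood near the bottom of the 11244 genes. SELENOT had a ratio of 0.0907 and 0.115 in its lysates, at the 1.17 percentile. SELENOW had 0.0860 and 0.208, at the 2.01 percentile, and SELENOP had 0.166 and 0.149, at the 2.71 percentile, on 1 RPF read per library. SELENOW overlapped with both of the others. SELENOP and SELENOT did not overlap, but 1 read per library cannot give the spread of SELENOP. The difference between the SELENOW lysates rests on 9 and 30 RPF reads.

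The other 7 genes lay between the 31.6 and the 74.5 percentile. SELENOS was highest, with ratios of 1.91 and 1.49, and SELENOH, whose 1.14 and 1.82 overlapped with it, came next. GPX1 (1.10 and 1.04) and SELENOM (0.851 and 1.32) were close to 1. GPX4 (0.929 and 0.762), SELENOK (0.808 and 0.684) and SELENOF (0.722 and 0.631) were under it. The median log2 TE of the 10 was -0.34, beside 0.01 for all genes.

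Input reads come from whole exons, whereas footprints come mostly from coding sequence, so a gene with long untranslated regions has a low ratio. The region over which the authors counted footprints is not given in the sources used here. With RPF per coding length over input per length of all exons, SELENOT stayed low at the 3.59 percentile and SELENOP at the 4.06, while SELENOW moved to the 37.8 percentile, since its exon length is 19.9 times its coding length, beside a median of 3.39 over all genes. With the length of 1 transcript in place of all exons, SELENOW was again low at the 1.81 percentile, SELENOP was at the 0.970 and SELENOT at the 5.10. SELENOT and SELENOP were thus low on all 3 scales, and SELENOW on 2 of them. For SELENOP all 3 restate the same 1 RPF read per library, the fewest that any gene of the table had. SELENOS and SELENOH were above the median on all 3. SELENOT and SELENOW also have annotated pseudogene copies, and RPF reads were allowed only 1 mapping position. The part of reads shared with such copies in these ratios was not tested, and no length correction removes it.

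**Figure D3:**
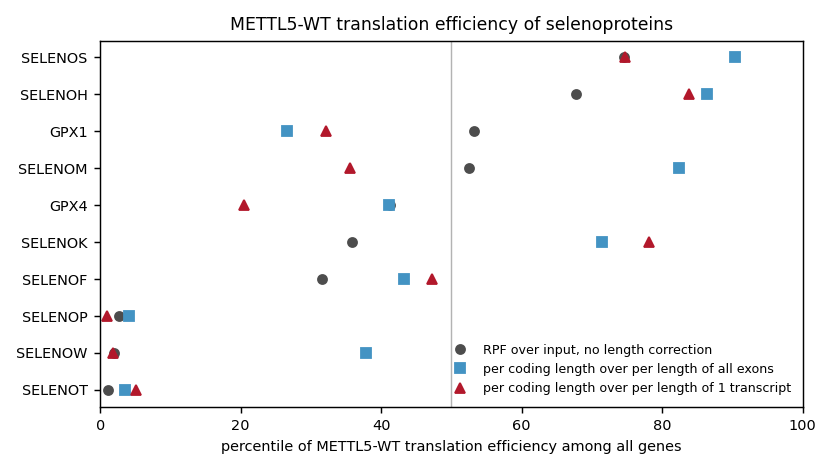
Percentile of METTL5-WT translation efficiency among all genes (0 to 100, line at 50) for the 10 genes, mean of 2 lysates, without length correction (circles) and with 2 length corrections (squares, all exons; triangles, 1 transcript). SELENOT and SELENOP stay at or under the 5.10 percentile on each scale, SELENOP on 1 RPF read per library, and SELENOW moves between 1.81 and 37.8.

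Across the 10 genes, the share of codons before the first UGA and the exon-length-corrected TE had a Spearman rho of 0.71, and across the 20 selenoprotein genes of the table it was 0.33. Without length correction the values were 0.50 and 0.21. These are descriptions over genes that share the same 4 libraries, and genes with an early UGA also differ in length and level.

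GPX1 and GPX4 were the members whose input RNA rose. GPX1 had input values of 1002 and 993 in METTL5-WT against 1328 and 1627 in METTL5-KO, and GPX4 had 1537 and 1681 against 1966 and 2364. Both METTL5-KO libraries were above both METTL5-WT libraries for each gene. The log2 change was 0.55 ± 0.12 (SE) for GPX1 and 0.42 ± 0.12 for GPX4 (edgeR quasi-likelihood test, Benjamini-Hochberg adjusted p = 0.00173 and 0.0149). These were 2 of 10 called, both higher, where 22.4% of the 14054 genes tested were called in either direction and 11.8% higher, so the share called among the 10 was near the background. The median input change of the 10 was 0.15, beside -0.004 over all genes. Leaving out either METTL5-WT library ended both calls, with adjusted p = 0.107 and 0.107 for GPX1 and 0.407 and 0.177 for GPX4. GPX1 also has 2 annotated pseudogene copies, which held 15 to 40 counts (GPX1P1) and 0 to 3 (GPX1P2). Only reads with 1 mapping position were counted, so reads shared with a copy may have been lost. The counts of the copies do not measure that loss.

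The remaining 8 genes did not pass the input test. SELENOF had input values of 1566 and 1666 against 1400 and 1449, lower in both METTL5-KO libraries, with a log2 change of -0.19 ± 0.11 (adjusted p = 0.236). SELENOT had 655 and 664 against 758 and 712, higher in both, with 0.14 ± 0.12 (adjusted p = 0.422). SELENOW (249 and 289 against 272 and 336), SELENOK (502 and 425 against 464 and 440) and SELENOS (389 and 366 against 386 and 387) overlapped between genotypes. The last of these had a change of 0.02 ± 0.13, an interval of -0.24 to 0.28 at 2 SE. SELENOH had 121 and 102 against 122 and 127, SELENOM 27.9 and 21.3 against 26.5 and 33.1, and SELENOP 14.3 and 13.5 against 6.03 and 13.1. For SELENOP, with 76 counts in the 4 libraries, the interval at 2 SE was -1.55 to 0.49, so changes inside it were not excluded at this depth.

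In RPF, GPX4, GPX1 and SELENOW were called. A gene was called in RPF or TE only where limma on log2(value + 1) and edgeR on the recovered reads both gave an adjusted p under 0.05 with the same sign. GPX4 had RPF values of 1428 and 1282 in METTL5-WT against 1843 and 1918 in METTL5-KO, a log2 change of 0.47 ± 0.11 (limma adjusted p = 0.00396, edgeR 0.00375). GPX1 had 1102 and 1033 against 1327 and 1389, a change of 0.35 ± 0.11 (limma 0.0272, edgeR 0.0399). The groups did not overlap for either enzyme, and input and RPF of each moved in the same direction.

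SELENOW had RPF values of 21.4 and 60.2 in METTL5-WT against 67.5 and 89.2 in METTL5-KO, from 9, 30, 56 and 80 reads. The METTL5-KO libraries were higher, but 1 METTL5-WT library lay close to them. The log2 change was 1.09 ± 0.34 (limma adjusted p = 0.0228, edgeR 0.0482). Without the first METTL5-WT lysate, which had the 9 reads, the change was 0.36 (limma 0.337, edgeR 0.521), and without the second it was 1.81. With the RPF libraries fitted alone, SELENOW was not called (limma 0.0993, edgeR 0.135).

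Thus 3 of the 10 were called in RPF, all higher, beside 26.6% of the 11240 genes tested in either direction and 14.1% higher. The median RPF change of the 10 was 0.27, beside 0.02 over all genes. The calls depended on the lysates left out: GPX4 remained called except without the second METTL5-WT lysate (limma adjusted p = 0.0583, edgeR 0.113), and when lysates were dropped singly, GPX1 was called only without the first METTL5-KO lysate. They also depended on length. The 10 genes have a median coding length of 534 bases, beside 1427 over the table, and with a trend on coding length removed from each library none was called, with changes of 0.31 for GPX4, 0.19 for GPX1 and 0.80 for SELENOW. Limma without a variance trend also gave no joint call (adjusted p = 0.0543 for GPX4, 0.111 for GPX1 and 0.130 for SELENOW).

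SELENOK was not called in RPF. It had RPF values of 406 and 291 in METTL5-WT against 486 and 453 in METTL5-KO, without overlap, and a log2 change of 0.45 ± 0.16 (limma adjusted p = 0.0423, edgeR 0.0514). Without the first METTL5-WT lysate the change was 0.69 and called, without the second it was 0.21 (limma adjusted p = 0.445), and with the coding length trend removed it was 0.17. SELENOF (1131 and 1051 against 1078 and 1231), SELENOS (744 and 543 against 567 and 592) and SELENOT (59.4 and 76.2 against 55.5 and 82.5) overlapped between genotypes, with changes of 0.08 ± 0.11, -0.13 ± 0.15 and 0.01 ± 0.20. SELENOH had 138 and 185 against 178 and 186, and SELENOM, from 10 to 33 reads, had 23.8 and 28.1 against 18.1 and 36.8.

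Footprints of SELENOP were few: 1 read per METTL5-WT library, 8 and 7 reads in METTL5-KO. Scaled by size factors, the sum in METTL5-KO was 4.00 times that in METTL5-WT, with an exact 95% counting interval of 0.929 to 36.0, which covers counting error only. Input gave 40 and 36 counts and a scaled ratio of 0.709 (0.439 to 1.14). On the fitted scale the RPF change was 1.60 ± 0.61 and was not called (limma adjusted p = 0.0571, edgeR 0.184). SELENOP shares 1452 exon bases with CCDC152 on the opposite strand. Input counting used strand, and CCDC152 had at most 2 counts.

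None of the 10 genes was called in TE, where 4.72% of the 11240 genes were. Limma, edgeR and DESeq2 each called 0 of the 10, and limma gave an unadjusted p under 0.05 for 2, SELENOP and SELENOK. The median TE change of the 10 was 0.04, beside 0.02 over all genes. TE of GPX4 changed by 0.05 ± 0.16 on the log2 scale, with an interval at 2 SE of -0.26 to 0.36, and that of GPX1 by -0.21 ± 0.16, from -0.53 to 0.11. For neither enzyme did the RPF change differ from the input change beyond its error.

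The widest TE changes were those of SELENOP and SELENOW. SELENOP had ratios of 0.166 and 0.149 in METTL5-WT against 1.60 and 0.598 in METTL5-KO, a change of 2.19 ± 0.86 (limma adjusted p = 0.142, edgeR 0.202). SELENOW had 0.0860 and 0.208 against 0.248 and 0.266, a change of 0.92 ± 0.48 (0.270 and 0.279). The METTL5-WT ratios of SELENOP rest on 1 RPF read per library, the fewest any gene had, and those of SELENOW on 9 and 30. Without the first METTL5-WT lysate the SELENOW change was 0.30.

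SELENOK had TE ratios of 0.808 and 0.684 in METTL5-WT against 1.05 and 1.03 in METTL5-KO, and a change of 0.48 ± 0.22 (limma adjusted p = 0.215, edgeR 0.195). SELENOF had 0.722 and 0.631 against 0.770 and 0.850, a change of 0.26 ± 0.15 (0.313 and 0.371). GPX1 had ratios of 1.10 and 1.04 in METTL5-WT against 0.999 and 0.854 in METTL5-KO, and its change was not called. SELENOT, the gene with the lowest ratio in METTL5-WT, had 0.0732 and 0.116 in METTL5-KO, one under and one over the METTL5-WT pair, and a change of -0.15 ± 0.29. SELENOS, SELENOH and SELENOM changed by -0.17 ± 0.21, 0.03 ± 0.31 and -0.27 ± 0.60, and their lysates overlapped.

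**Figure D4:**
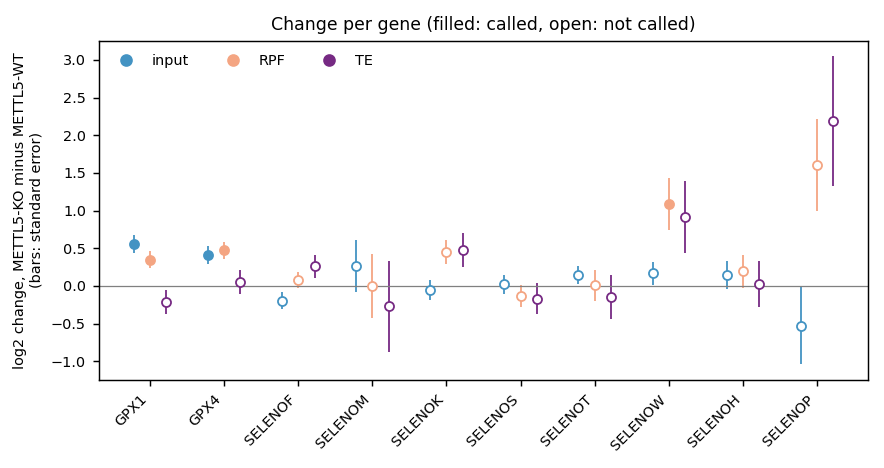
Log2 change, METTL5-KO minus METTL5-WT, of each gene in input (blue), RPF (orange) and TE (purple), with standard errors; filled points were called and open points were not. GPX1 and GPX4 are filled in input and RPF, SELENOW in RPF, no gene in TE, and SELENOP has the widest bars.

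TE changes in these libraries went with GC content, and the 10 genes span it. SELENOP, with 43.1% GC in its coding sequence, lay among 1122 genes of similar GC content whose median TE change was 0.27. SELENOK and SELENOT (45.3% and 46.3%) shared a group of 1122 with a median of 0.22, so their own changes of 0.48 and -0.15 lay on either side of it. GPX1 and SELENOM (64.7% and 64.8%) were among the 1122 genes highest in GC, whose median was -0.37, beside their own changes of -0.21 and -0.27. With a GC trend removed from each library, the GPX1 TE change was 0.14 and that of SELENOM 0.08. In the same fit SELENOK had 0.27, SELENOF 0.10, SELENOT -0.33, GPX4 0.27 and SELENOH 0.37, and none of the 10 genes was called. The part of GC content in the selenoprotein values beyond this was not tested.

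GPX1 and GPX4 were also set beside the genes next to them. The median input change of the 40 tested genes closest to GPX1 on chromosome 3 was 0.15, of which 7 were called, against 0.55 for GPX1. Around GPX4 on chromosome 19 the median was 0.26, with 9 of 40 called, against 0.42 for GPX4. Both genes exceeded the median of their neighbours, GPX4 by 0.16.

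For a single gene, the exact two-sided permutation test of 2 against 2 libraries cannot go below p = 0.333, which was the value for GPX1 input. The genes whose pattern over the 8 libraries was most like that of GPX4, among 8603 with a mean value of at least 100, were HYAL1, UBL4A and HES4 (Pearson r = 0.99, 0.97 and 0.96 of log2 values). For GPX1 they were HPS1, SLC48A1 and RASA3 (0.97, 0.97 and 0.96), and for SELENOP VMP1, SEC24D and NONO (0.96, 0.94 and 0.93). With 8 libraries of 2 types these values mainly order genes by input against RPF and genotype.

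Among the 15 other selenoprotein genes, 10 were in the table, of which 3 were called in input and 5 in RPF. Over all genes, 22.4% were called in input and 26.6% in RPF. TXNRD1, the cytosolic thioredoxin reductase with its UGA as codon 648 of 649, rose in input from 15306 and 15694 to 22718 and 21915 and in RPF from 10835.5 and 10595 to 18999.7 and 17274.5, log2 changes of 0.51 ± 0.11 and 0.76 ± 0.11. TXNRD2, the mitochondrial reductase, rose by 0.51 and 0.47, and MSRB1, which reduces oxidised methionine, rose in RPF by 0.70. SEPHS2, which makes selenophosphate and is itself a selenoprotein, fell by 0.50 in input and by 0.81 in RPF, and SELENON, an ER calcium regulator, fell by 0.60 in RPF. The 3 input calls became 1 without the first METTL5-WT library, 0 without the second and 7 without the first METTL5-KO library, and the 5 RPF calls became 3 without the first METTL5-WT lysate or without either METTL5-KO lysate. None of the 10 was called in TE by limma, edgeR or DESeq2, beside 4.72% of all genes called by limma and edgeR together. For 4 of the 10, limma gave an unadjusted p under 0.05. DIO3, named here after its values were seen, had the widest TE change at -2.44 ± 0.81 (limma adjusted p = 0.0881), from 4 to 16 RPF reads.

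Genes of selenocysteine and selenium handling, among them those that make or insert selenocysteine, moved in both directions. Of the 14 measured, 1 rose and 2 fell in input, and 3 rose and 2 fell in RPF, where 22.4% of all genes were called in input and 26.6% in RPF. Without the second METTL5-WT library or lysate, 0 were called in input and 1 in RPF, and without the first METTL5-KO library 6 were called in input. SEPSECS, which completes selenocysteine on its tRNA, had RPF values of 78.4 and 68.2 in METTL5-WT against 168 and 117 in METTL5-KO, a rise of 0.93 ± 0.24 on the log2 scale with no input change called (-0.05 ± 0.17). RPL30, a ribosomal protein that also binds SECIS elements, rose in RPF by 0.50, and EIF4A3, an exon junction protein that binds a subset of SECIS elements, by 0.33. NCL, a nucleolar protein that binds SECIS elements, fell in RPF by 0.48, and SEPHS2 fell as above.

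The elongation factor EEFSEC rose in input by 0.50 ± 0.16 (edgeR adjusted p = 0.0242), and SECISBP2L, a relative of SECISBP2, fell in input by 0.53. SECISBP2 itself was not called, with changes of 0.10 in input and 0.05 in RPF. None of the 14 was called in TE by both tools, beside 4.72% of all genes. EdgeR alone called 1, SCLY, DESeq2 alone called 2, SCLY and RPL30, and limma gave an unadjusted p under 0.05 for 3. The median RPF change of the 14 was 0.31, beside 0.02 over all genes.

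Relatives that carry another amino acid in place of selenocysteine need no recoding. Of 6, 4 were in the table. Over all genes, 22.4% were called in input, 26.6% in RPF and 4.72% in TE. GPX8, an ER-resident peroxidase, was the single gene of the 4 called in TE. Its input values were 824 and 863 in METTL5-WT against 735 and 595 in METTL5-KO, and its RPF values were 1131 and 1017 against 1759 and 1657. GPX8 thus fell in input by 0.36 ± 0.12, rose in RPF by 0.67 ± 0.12 and rose in TE by 1.02 ± 0.17 (limma adjusted p = 0.00419, edgeR 0.000686), opposite to GPX1 and GPX4 in input. Its TE call was lost with no variance trend and without the second METTL5-KO lysate. Its input call was lost with DESeq2, with no filter on low counts, without either METTL5-WT library and without the second METTL5-KO library. MSRB2, MSRB3 and SEPHS1 were not called in any comparison.

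Partners of the ER selenoproteins were mostly below the threshold, with called shares near the 22.4% of all genes in input and 26.6% in RPF. UGGT1, the folding sensor that SELENOF binds, fell in input by 0.40 and in RPF by 0.43, and UGGT2 fell in input by 0.45. ZDHHC6, the partner of SELENOK, fell in RPF by 0.56. Of these calls, 2 in input and 2 in RPF over the 8 partners, none was left in input without either METTL5-WT library, and none in RPF without the second METTL5-KO lysate or with no variance trend. VCP, DERL1, DERL2, DERL3 and SYVN1, the export machinery in which SELENOS and SELENOK take part, were not called in any comparison. None of the 8 partners was called in TE by limma, edgeR or DESeq2, beside 4.72% of all genes called by limma and edgeR together. None of the 8 had an unadjusted p under 0.05 in limma.

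**Figure D5:**
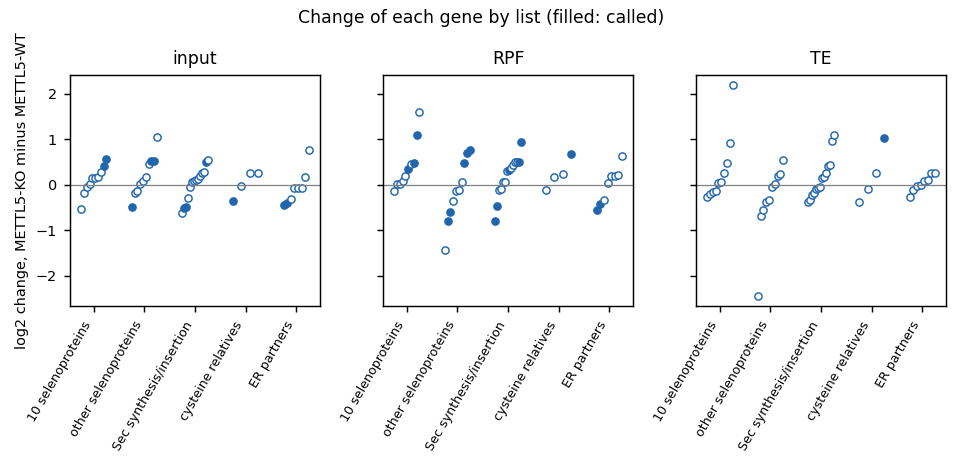
Log2 change, METTL5-KO minus METTL5-WT, of every gene in the table from each list, for input, RPF and TE; each point is 1 gene, sorted by its value within the list, filled where called. The 10 selenoproteins have filled points above 0 in input and RPF only, other selenoproteins and the selenocysteine genes have filled points on both sides, and GPX8 is the single filled point in TE.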

How the data were processed

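Input RNA and ribosome-protected fragments were sequenced from 2 METTL5-WT and 2 METTL5-KO lysates, with grouping and numbering as in GEO's titles. Per the study's methods, the authors trimmed reads with BBDuk, aligned input reads to hg38 with STAR 2.7.3a and deposited a table of raw counts made by featureCounts, strand-specific and over exons, from reads with 1 mapping position. The file header names featureCounts 2.0.1, the labels 1.6.0. RPF reads of 25 to 34 bases, without ribosomal RNA, went to the RiboToolkit server with 1 mapping position allowed. Its table was deposited with signal values for 8 libraries that the authors name RPKM. They are reads divided by a size factor per library: 100% came out as whole reads within 0.01 of a read, and 100% of input values matched the count table. The authors also deposited their own log2 fold change of TE with its p-value and adjusted p-value, which were not used.

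Input counts (14054 genes after filterByExpr) were tested with edgeR 4.0.16 (TMM, quasi-likelihood). RPF and TE were tested in 1 model of 8 libraries with limma 3.58.1 (trend) on log2(value + 1), over the 11240 genes whose mean value was 1 or more in input and in RPF, and with edgeR on the recovered reads. The added 1 makes RPF and TE fold changes of low genes smaller than those of the values themselves. A call in RPF or TE required both tests. Adjusted p-values are two-sided, Benjamini-Hochberg, over all genes. DESeq2 1.42.0 was an alternative. Other alternatives changed the pseudocount, filters, scaling and fit, removed GC or length trends (local regression, span 0.3) or left out a lysate. R 4.3.3 and Python 3.11.15 were used, and fits were tested on simulated data.

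UGA codons were read from GENCODE release 44 (hg38), whose annotation covered 11224 genes of the table. The named genes include all 10 members, METTL5, the cell type markers and every called gene of the other lists. Some genes of those lists that were not called are also named, and, for 3 members, the 3 genes of most similar pattern. The members and lists were chosen with earlier results of these data known. Input and RPF of 1 lysate come from the same material, which pairs them; their deviations from group means had correlations of -0.016 and 0.053. No 2 replicates agreed within sampling noise. Chi-square per degree of freedom was 3.17 for METTL5-WT input, 15.8 for METTL5-KO input, 5.68 for METTL5-WT RPF and 5.05 for METTL5-KO RPF.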

Additional observations from a re-analysis of the deposited data

How the results depend on the processing

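The 0 selenoprotein calls in TE held under every alternative except a cut on size, 2-fold with an unadjusted p under 0.05, which called 1, SELENOP; that rule called 0 in input and 1 in RPF, SELENOW. The 2 input calls became 0 without either METTL5-WT library, and ranged from 0 to 3 over the fits that left out a library. The 3 RPF calls became 0 with no variance trend or with the coding length trend removed, and ranged from 1 to 2 when a lysate was left out. Quantile normalization lost GPX1 (limma adjusted p = 0.121), and GC removal lost SELENOW (edgeR 0.0508). The cause was not tested. Over all genes, the TE calls numbered 530, but 1 with no variance trend, 277 with the GC trend removed, 320 under the 2-fold rule, 838 with DESeq2, and 4 to 222 when a lysate was left out; input calls ranged from 1207 to 5474 when a library was left out, beside 3149, and were 1139 under the 2-fold rule. RPF calls numbered 2991, but 888 under that rule and 1966 without the first METTL5-KO lysate.

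The median log2 TE of the 10 genes in METTL5-WT was -0.34, but 1.55 per coding and exon length and 0.70 per coding and transcript length. Length correction moves every gene: relative to the median of all genes, which was 0.00863 without correction, the median of the 10 was -0.237 per exon length and -0.442 per transcript length, with 6 and 7 of the 10 below it, and 6 without correction. Their median level was 49.2 TPM over exon length, 147 over coding length and 99.7 over transcript length. The 2 scales by transcript length, and the GC trend in input, were chosen after seeing the data.

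METTL5-WT and METTL5-KO replicates share only a number, since deviations from group means had a correlation of 0.04 for input libraries and -0.002 for RPF libraries. With that number fitted as a replicate block, 2 selenoproteins were called in input and 4 in RPF, SELENOK joining (limma adjusted p = 0.0246, edgeR 0.0379), and 0 in TE. A replicate block on the lysate, which pairs input and RPF, gave 0 in TE and 759 over all genes; with the GC trend removed as well it gave 0 and 397.

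Directions turned for changes near 0, none of them called. With the GC trend removed, SELENOH input was -0.0414, SELENOK input 0.0612, SELENOT RPF -0.0824, GPX1 TE 0.139 and SELENOM TE 0.0838, the last 2 also with the lysate block (0.139 and 0.0838). With the length trend removed, RPF changes were -0.0509 for SELENOH, -0.159 for SELENOT, -0.115 for SELENOF and -0.214 for SELENOM, and TE changes -0.0650 for GPX4 and -0.143 for SELENOH. Quantile normalization gave -0.0129 for SELENOM RPF and -0.166 for GPX4 TE, a pseudocount of 0.1 gave -0.00117 for SELENOM RPF, and edgeR alone -0.0187 for SELENOH TE. When a library or lysate was left out, input changes ranged from -0.162 to 0.0800 for SELENOK and from -0.0166 to 0.0703 for SELENOS. RPF changes ranged from -0.0172 to 0.401 for SELENOH, -0.360 to 0.0919 for SELENOS, -0.274 to 0.290 for SELENOT, -0.0160 to 0.175 for SELENOF and -0.491 to 0.494 for SELENOM. TE changes ranged from -0.0908 to 0.194 for GPX4, -0.306 to 0.356 for SELENOH, -0.351 to 0.0133 for SELENOS, -0.474 to 0.180 for SELENOT and -0.607 to 0.0681 for SELENOM. SELENOP was not fitted with a mean of at least 10. Fits that left a group with 1 library assume that it varies like the other groups. Depth limits SELENOP, SELENOW and SELENOM most, with 1, 9 and 10 reads in their lowest RPF library.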

Other observations

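The 8 annotated pseudogene copies of the members in the input count table held few reads. GPX1P1 had 19 and 15 counts for METTL5-WT, 30 and 40 for METTL5-KO, and SELENOTP1 had 7 and 12 against 10 and 9. The other 6 copies of GPX1, SELENOT, SELENOW and SELENOK had at most 3 counts in any library. Only reads with 1 mapping position were counted, so these counts do not show how many reads were shared with a copy and lost.

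SELENOH shares 429 exon bases with a gene on the same strand, ENSG00000254732, which had at most 3 counts. SELENOT shares 61 bases with SERP1 on the opposite strand, which had 2012 to 3162 counts.

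The median input change of the 40 closest tested genes was -0.10 around SELENOF (14 called) and 0.25 around SELENOW (8 called), beside the members' own changes of -0.19 and 0.17. It was -0.05 around SELENOP, 0.04 around SELENOM and -0.06 around SELENOT, beside their own -0.53, 0.27 and 0.14. Around SELENOH it was 0.03 and around SELENOK -0.13, beside 0.15 and -0.05, and for the 24 tested neighbours of SELENOS it was -0.0043, beside 0.02.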
